A study of Mus musculus with 18 samples.

Results

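Gene expression in the lateral septum (LS) was compared between lactating maternal mice that kept their litters and mothers whose pups were removed. The comparison used 12 of the 18 arrays of the study, 6 lactating maternal and 6 pups removed, chosen by the maternal state in their labels. All mice were outbred hsd:ICR females about 70 days old at dissection. Both groups mated, gave birth and had their litters set to 11 pups on the day of birth. Lactating maternal mice nursed until postpartum Day 7, whereas the pups removed mice lost their litters on Day 2, and the LS was dissected on Day 7 in both. The study describes the pups removed mice as diestrous at dissection and gives no ovarian state for the lactating mice. Lactation, contact with pups and any difference in ovarian state cannot be told apart. The remaining 6 arrays came from age-matched virgin mice in diestrus that had been housed with other females, and they entered the fit to help estimate the spread and are given as a reference level. Each array held the RNA of 1 mouse.

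The LS is a forebrain region rich in GABA neurons that receives hippocampal and hypothalamic input and is known for its part in anxiety, aggression and maternal care. Lactation brings suckling input, raised prolactin and an altered stress axis. Prolactin acts through the kinase JAK2 and the transcription factor STAT5, which switches on its own inhibitors, the SOCS proteins. Glucocorticoids act through a receptor that binds DNA as a dimer. Immediate early genes are transcribed within minutes of neuronal activation, often through the cAMP response element. Adult neural stem cells line the lateral ventricle next to the LS.

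The arrays measured 35557 targets (probesets), and values are log2 signal, on which a difference of 1 is a doubling. Of these targets, 21789 named exactly 1 gene and covered 19938 genes, 1621 named several genes and 12147 named none. Differences are given throughout as maternal minus pups removed. P-values came from limma, were corrected for all targets at once after Benjamini and Hochberg, and led to a call when under 0.25. The threshold follows the methods of the study. Array medians of these 12 arrays ran from 7.65 to 7.70. The median SD of a gene between arrays was 0.0802 in maternal and 0.0857 in pups removed mice. No label ties an array to a litter or a day, and the p-values measure the spread between these mice.

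Regulatory stretches of Fam107a, Btg2 and Cish are shown because these genes lie at the head of the groups described in the results. They come from the RefSeq promoter table of build GRCm38.p6, in which a window holds 250 bases before a transcript start and 50 after it. Motifs were searched on both strands of all 32851 windows. The capitals mark GNACANNNTGTNC, the palindrome of the glucocorticoid receptor, in Fam107a, the cAMP response element TGACGTCA in Btg2, and TTCNNNGAA, the palindrome bound by STAT proteins, in Cish.
Fam107a, chr14:8309830-8309952, minus strand: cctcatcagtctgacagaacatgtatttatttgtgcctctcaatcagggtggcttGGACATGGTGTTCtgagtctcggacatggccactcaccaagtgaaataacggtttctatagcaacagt
Btg2, chr1:134079259-134079376, minus strand: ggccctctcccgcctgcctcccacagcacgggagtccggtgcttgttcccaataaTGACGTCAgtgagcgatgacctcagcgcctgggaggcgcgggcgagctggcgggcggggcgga
Cish, chr9:107296651-107296680, plus strand: gcccagttTTCCTGGAAagTTCTTGGAAat

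The glucocorticoid palindrome was held by 0.475% of all windows, the cAMP response element by 1.79% and the STAT palindrome by 8.3%. Counts of listed genes given below take a gene with a match in any of its windows, so these shares are no background for them. Fam107a had 3 windows, and the palindrome lay in 2 of them, whose starts are 2 bases apart. In Cish 2 STAT palindromes began at bases 1 and 12 of the transcript. These are matches of letters, and binding was not measured. Which of its starts each gene used in the LS was not measured either.

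Between lactating maternal and pups removed LS, 11 targets were called, 8 higher in maternal mice (0.0225% of all targets) and 3 lower (0.00844%). Of the 11, 4 were globin targets that each name several genes, 6 named 1 gene and 1 named none. Fam107a, Sult1a1 and Phyhd1 rose, and Mgat5b, Fjx1 and Cpped1 fell. All 6 are in the study's list of genes that passed this threshold against both pups removed and virgin mice. That list is longer, and its further genes, among them Fabp7, Cish, Socs2, Rbm3 and Nmu, were not called here. The reason for this difference was not tested. A further 103 targets had an adjusted p from 0.25 to 0.30, among them 20 that were higher and 54 that were lower and named 1 gene, so the count of calls depended on small shifts in the fit. Without pups removed replicate 4 the count was 719, and without maternal replicate 1 it was 204. It was 30 without virgin replicate 5, 19 without virgin replicate 4, 6 without maternal replicate 3 and 5 without maternal replicate 4. When only targets naming 1 gene were tested, 309 passed, and with each array centred on its median 7 passed, all of them higher in maternal mice.

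The adult hemoglobin genes gave the largest called difference. Hba-a1 and Hba-a2 encode the alpha chain of adult hemoglobin, and Hbb-b1, Hbb-b2, Hbb-bs and Hbb-bt are names of adult beta chain genes. Their near-identical copies share targets, so the copies cannot be separated here. On the first alpha target (10375058) the 6 maternal arrays ran from 11.39 over a median of 11.69 to 11.89, and the 6 pups removed arrays from 8.38 over 9.09 to 9.64. Every maternal array was above every pups removed array. The difference was 2.57 (SE 0.20, 95% confidence interval 2.15 to 2.99, n = 6 and 6, limma adjusted p = 3.79e-06), or 5.94-fold. The second alpha target (10375051) rose by 2.63 and the beta targets by 2.70 (10566258) and 2.65 (10566254), with SEs from 0.21 to 0.22. Virgin arrays ran from 10.91 to 11.72 on the first alpha target, within or near the maternal range, and the difference from the virgin mean was -2.29 for pups removed and 0.28 for maternal mice. These comparisons share the pups removed or the maternal arrays and are not independent of each other.

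**Figure D1:**
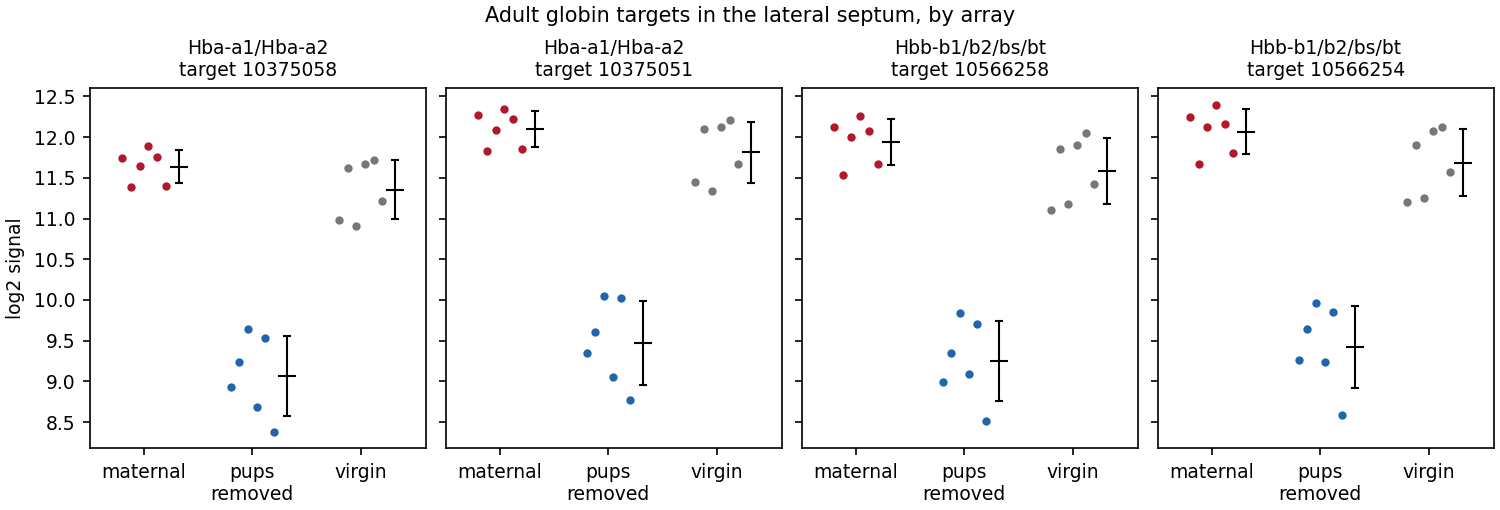
Log2 signal of the 4 adult globin targets (vertical axis) in each of the 6 maternal, 6 pups removed and 6 virgin mice (points), with the mean and SD of each group beside them. In each panel the pups removed arrays, at 10.05 or below, lie under all maternal and virgin arrays, which are at 10.91 or above.

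The embryonic globin genes and other red cell genes moved less. Hbb-y, Hba-x, Hbb-bh1 and Hbb-bh2, which are globin genes of the embryo and fetus named by a target each, differed by 0.17, 0.09, 0.07 and 0.07 and were not called. Mean maternal and pups removed signals were low for Hbb-y (6.43 and 6.26), Hbb-bh1 (5.04 and 4.98) and Hbb-bh2 (6.71 and 6.65). Whether a change of the size seen in the adult globins could show at such signals was not tested. Alas2, the erythroid enzyme that starts heme synthesis, was higher by 0.36 (SE 0.07, limma adjusted p = 0.275). Its maternal arrays ran from 7.33 to 7.66 and its pups removed arrays from 6.92 to 7.36, with an overlap of the highest pups removed and the lowest maternal arrays. Slc4a1, the anion exchanger of the red cell membrane, was higher by 0.21 (SE 0.07, limma adjusted p = 0.396). Of the 7 erythroid markers without globins, 5 were higher and 2 lower, none was called, and the median difference was 0.06. Of these 7 markers, 3 had a mean signal under 7, where the same limit holds. The mean level of these markers ran from 7.16 to 7.30 on maternal arrays and from 7.08 to 7.19 on pups removed arrays. In bulk tissue, fewer cells of a type and less RNA per cell cannot be told apart.

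Fam107a, which encodes an actin-associated protein that responds to stress and glucocorticoids, had the strongest call among the targets naming 1 gene. Its 6 maternal arrays ran from 11.56 over 11.61 to 11.70 and its 6 pups removed arrays from 11.23 over 11.30 to 11.35, with no overlap. It rose by 0.33 (SE 0.04, 95% confidence interval 0.25 to 0.41, limma adjusted p = 0.000923), or by 25.6% on the linear scale. Its virgin arrays ran from 11.30 to 11.52, below all maternal arrays and overlapping the pups removed arrays. The adjusted p of Fam107a stayed at or under 0.0285 in all 29 alternatives of the fit.

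Sult1a1, a sulfotransferase of phenols, ran from 8.27 over 8.33 to 8.52 on maternal arrays and from 7.87 over 8.01 to 8.16 on pups removed arrays. It rose by 0.33 (SE 0.06, limma adjusted p = 0.194). Phyhd1, a dioxygenase related to the peroxisomal phytanoyl-CoA hydroxylase, ran from 8.83 over 8.98 to 9.07 and from 8.42 over 8.67 to 8.82, and rose by 0.32 (SE 0.06, limma adjusted p = 0.197). Both groups were apart by only 0.11 and 0.01 at their nearest arrays. A target that names no gene (10449280) rose by 0.59 (SE 0.10, limma adjusted p = 0.0715), from a range of 6.22 to 6.76 on pups removed arrays to one of 6.97 to 7.32 on maternal arrays.

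The 3 genes that fell did so by small steps with little spread. Mgat5b, a brain glycosyltransferase that branches O-mannosyl glycans, ran from 9.03 over 9.08 to 9.12 on maternal arrays and from 9.17 over 9.23 to 9.27 on pups removed arrays, and fell by 0.15 (SE 0.03, limma adjusted p = 0.194). Fjx1, a secreted relative of Drosophila four-jointed that bears on dendrite growth, fell by 0.25 (SE 0.05, limma adjusted p = 0.197), with maternal arrays from 9.03 to 9.22 and pups removed arrays from 9.31 to 9.41. Cpped1, a phosphatase that acts on Akt, fell by 0.19 (SE 0.04, limma adjusted p = 0.217), with maternal arrays from 8.82 to 8.89 and pups removed arrays from 8.94 to 9.15. In each of the 3 the virgin mean, at 9.21, 9.34 and 9.03, was within 0.03 of the pups removed mean.

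**Figure D2:**
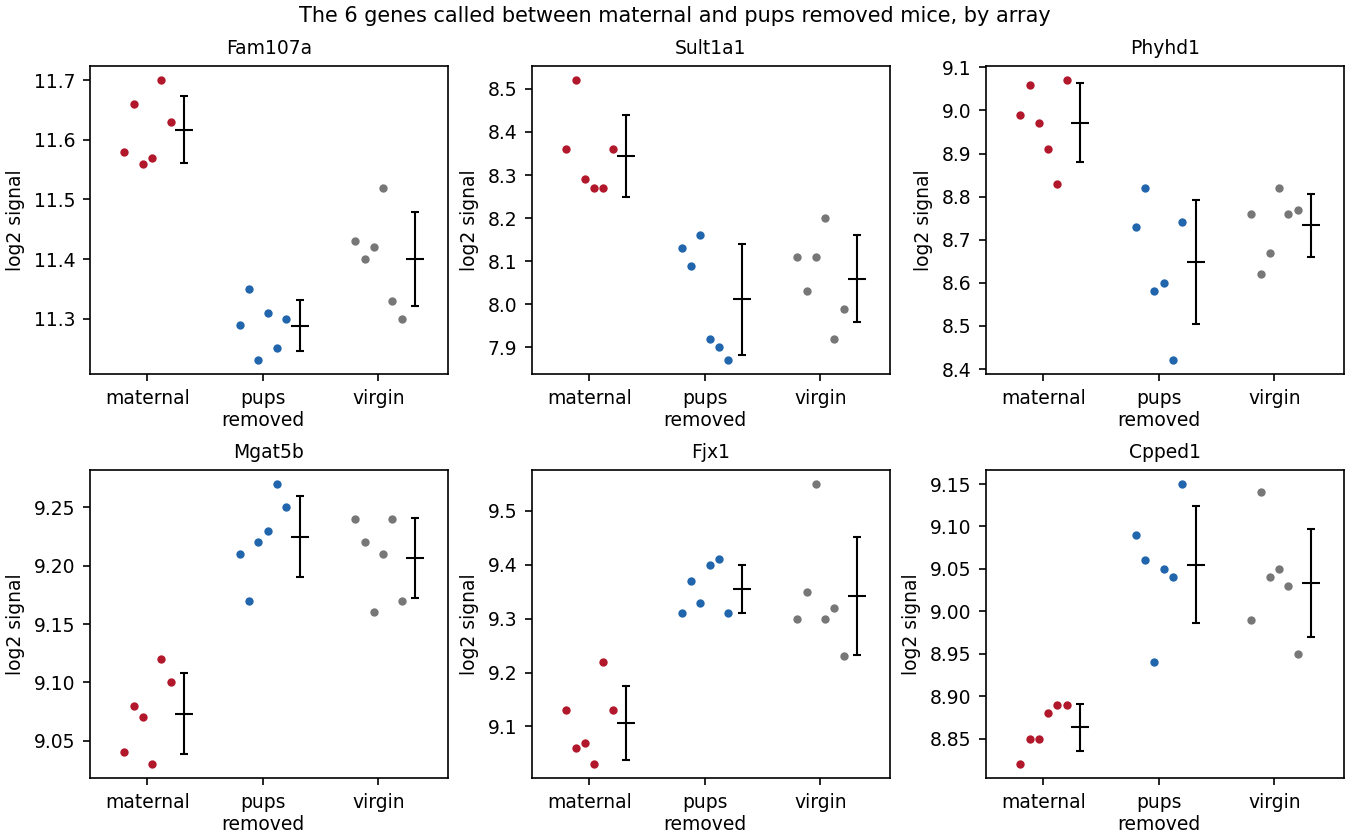
Log2 signal (vertical axes, each panel with its own range) of the 6 genes called between maternal and pups removed mice, with 1 point per mouse and the mean and SD of each group of 6 beside the points. Maternal points lie wholly above the pups removed points for Fam107a, Sult1a1 and Phyhd1 and wholly below them for Mgat5b, Fjx1 and Cpped1.

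Over 1 target per gene, 3.44% of the 19938 genes were higher and 6.48% were lower at an unadjusted p under 0.05, and the median difference of all genes was -0.005. The groups did not overlap for 0.176% of genes in the higher and 0.461% in the lower direction. The lists of genes described in the following are read against these shares. The lists and their members were chosen with earlier results of these data known, so their counts are not independent tests. No list held a called gene apart from the glucocorticoid list.

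Genes that respond to glucocorticoids were mostly higher in maternal mice. Of 19 measured, 17 were higher and 2 lower, 2 were called (Fam107a and Sult1a1), and 8 were higher and 1 lower at an unadjusted p under 0.05. Their median difference was 0.09. The study had listed Fam107a, Sult1a1 and Arrdc2, a further member, as higher in maternal than in pups removed mice on these arrays. The study required an adjusted p under 0.25 for this, and Arrdc2 was not called here. The members were chosen with such results known, so these counts and calls are not an independent test. Plin4, a coat protein of lipid droplets, was higher by 0.36 (SE 0.08, limma adjusted p = 0.278), with maternal arrays from 7.58 to 8.04, pups removed arrays from 7.28 to 7.55 and no overlap. The kinase gene Sgk1 was higher by 0.43 (SE 0.13, limma adjusted p = 0.391), with overlapping ranges of 9.20 to 9.78 and 8.72 to 9.46. Ddit4, an inhibitor of mTOR, differed by 0.16, the transcription factor gene Zbtb16 by 0.21 and Tsc22d3, which encodes the leucine zipper GILZ, by 0.25, with adjusted p-values from 0.418 to 0.518. Fkbp5, a co-chaperone of the receptor and a common readout of its activity, differed by 0.04 (SE 0.05). Nr3c1, the receptor itself, was lower by 0.09 (SE 0.04, limma adjusted p = 0.526), and its groups did not overlap. The palindrome printed for Fam107a was found in the windows of 3 of the 17 listed genes that had one, the others being Sgk1 and Mt1.

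Immediate early genes lay higher in mothers with pups in all 14 members measured, and none was called. At an unadjusted p under 0.05, 9 of the 14 were higher, and the median difference was 0.21. Fos, a subunit of the AP-1 factor, ran from 7.35 over 7.80 to 8.25 on maternal arrays and from 6.94 over 7.03 to 7.39 on pups removed arrays. Only 1 pups removed array was above the lowest maternal array. The difference of Fos was 0.69 (SE 0.17, 95% confidence interval 0.32 to 1.05, limma adjusted p = 0.287), or 61.0% on the linear scale. Btg2, an antiproliferative gene, was higher by 0.44 (SE 0.10, limma adjusted p = 0.278) and the groups, at 8.45 to 8.83 and 8.04 to 8.35, did not overlap. Npas4, a transcription factor gene that answers calcium entry, was higher by 0.53 (SE 0.17, limma adjusted p = 0.396), also with no overlap, at 8.14 to 8.87 and 7.75 to 8.03. Arc differed by 0.26, Egr2 by 0.22, Egr1 by 0.21, Junb by 0.16 and the phosphatase gene Dusp1 by 0.27, while Nr4a1 differed by 0.22 with a larger error (SE 0.18).

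The mean level of the 14 genes ran from 8.47 to 8.78 on maternal arrays, from 8.33 to 8.56 on pups removed arrays and from 8.36 to 8.90 on virgin arrays. The virgin range thus covered nearly all of both groups. Their median difference was 0.07 for maternal minus virgin and -0.16 for pups removed minus virgin. The element printed for Btg2 was found in windows of 2 of the 10 immediate early genes that had one, Btg2 and Dusp1.

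Cish and Socs2, feedback inhibitors of the prolactin pathway, lay higher in mothers with pups without a call. Cish, a STAT5 target whose protein blocks cytokine receptors, ran from 7.97 over 8.09 to 8.22 on maternal arrays and from 7.76 over 7.84 to 7.94 on pups removed arrays, with no overlap. Its difference was 0.25 (SE 0.05, limma adjusted p = 0.265). Socs2, another inhibitor of the same family, had a pair of targets, which were higher by 0.36 and 0.33, with SEs of 0.08 and 0.11 and limma adjusted p-values of 0.275 and 0.395. On the brighter one maternal arrays ran from 9.42 to 9.69 and pups removed arrays from 9.05 to 9.45. The virgin means of Cish, 7.86, and of that Socs2 target, 9.26, were within 0.03 of the pups removed means. In the study's quantitative PCR on 8 mice per group, Socs2 was significantly higher in maternal than in pups removed mice. Of the 9 genes of the list 6 were higher and 2 lower, 2 were higher at an unadjusted p under 0.05, and the median was 0.01, so the other members, among them the receptors' kinase Jak2 and the STAT5 genes, lay between -0.07 and 0.07. STAT palindromes were found in windows of 2 of the 8 listed genes that had one, Cish and Socs3.

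**Figure D3:**
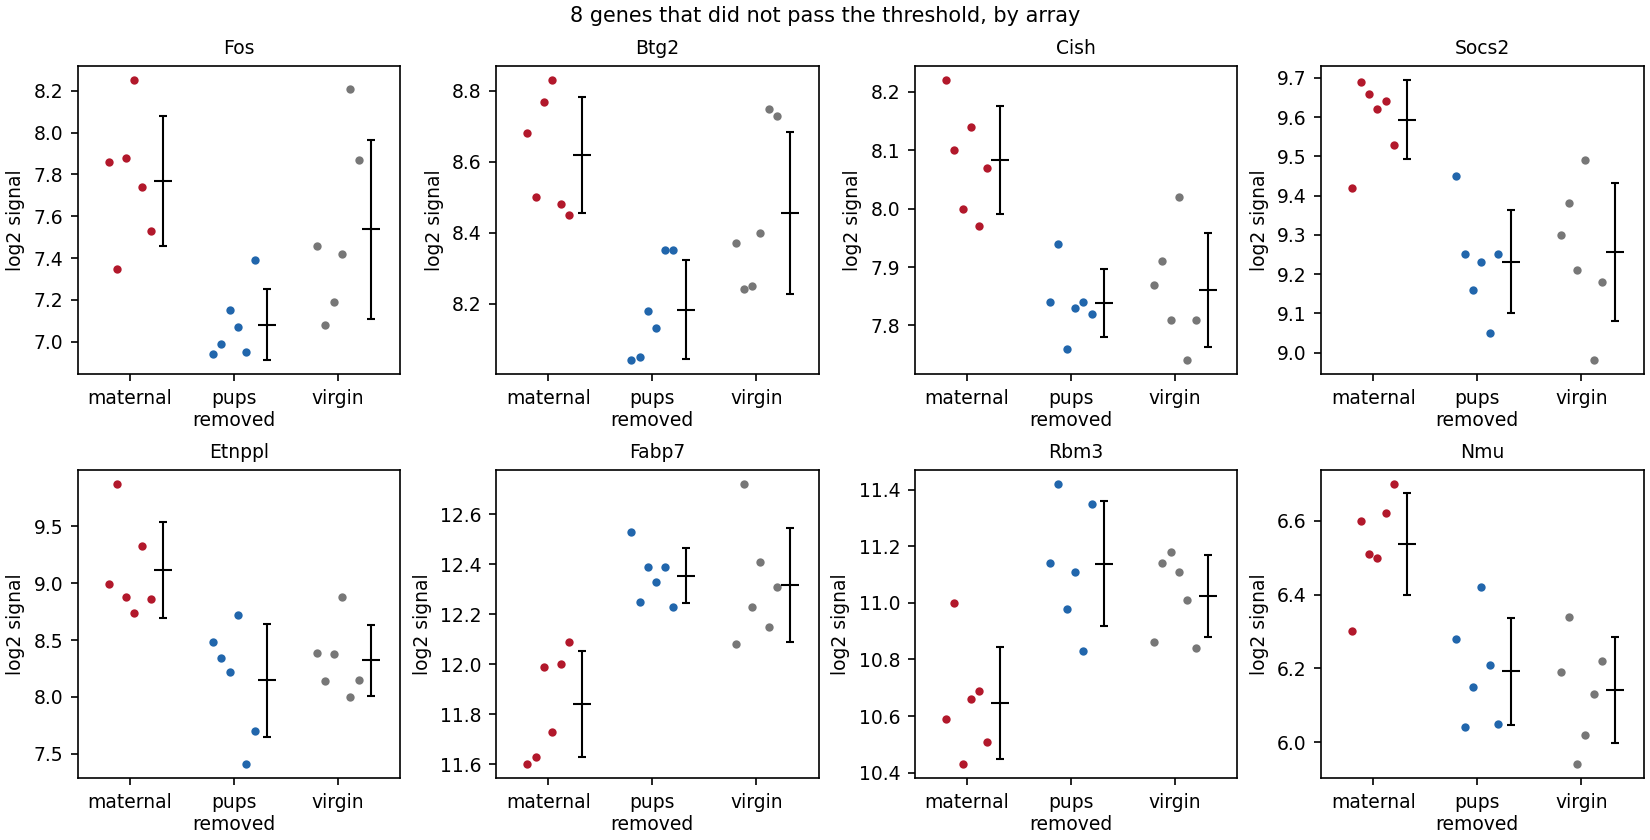
Log2 signal (vertical axes, each panel with its own range) of 8 genes that were not called, with 1 point per mouse and the mean and SD of each group of 6 beside the points. Btg2, Cish, Etnppl and Fabp7 show no overlap of maternal and pups removed mice, while Fos, Socs2, Rbm3 and Nmu overlap.

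Several single genes known from glial cells had small p-values. Etnppl, an enzyme that breaks down phosphoethanolamine, had the largest difference toward maternal mice of any gene with a target of its own, 0.97 (SE 0.22, 95% confidence interval 0.50 to 1.44, limma adjusted p = 0.278). Its maternal arrays ran from 8.74 over 8.94 to 9.87 and its pups removed arrays from 7.41 over 8.28 to 8.72, a near doubling of signal with wide spread in both groups. Aldoc, the brain aldolase of astrocytes, was higher by 0.17 (SE 0.04, limma adjusted p = 0.287), and Selenop, the selenium carrier, by 0.21 (SE 0.04, limma adjusted p = 0.265). Of the 13 astrocyte markers 8 were higher and 5 lower, 4 and 1 of them at an unadjusted p under 0.05, with a median of 0.02. Their mean level ran from 10.57 to 10.69 on maternal and from 10.53 to 10.65 on pups removed arrays. P2ry12, a purine receptor of microglia, was lower by 0.16 (SE 0.04, limma adjusted p = 0.278), and Gpr17, a receptor of oligodendrocyte precursors, by 0.18 (SE 0.04, limma adjusted p = 0.278). The microglial list had 16 measured genes, of which 7 were higher and 9 lower, 1 and 3 of them at an unadjusted p under 0.05, with a median of -0.05. Of 7 markers of oligodendrocyte precursors 4 were higher and 3 lower, 0 and 2 of them at that p, with a median of 0.00.

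Genes of neural stem cells lay lower in mothers with pups. All 10 measured members were lower, 5 of them at an unadjusted p under 0.05, and none was called. Fabp7, a fatty acid carrier of radial glia and astrocytes, ran from 11.60 over 11.86 to 12.09 on maternal arrays and from 12.23 over 12.36 to 12.53 on pups removed arrays, with no overlap. Its difference was -0.51 (SE 0.10, 95% confidence interval -0.73 to -0.30, limma adjusted p = 0.265), or by -29.9% on the linear scale. Nr2e1, a nuclear receptor that keeps stem cells dividing, was lower by 0.18 (SE 0.04, limma adjusted p = 0.278). Rfx4, a ciliogenic factor of radial glia, was lower by 0.17 (SE 0.05, limma adjusted p = 0.310). The growth factor receptor gene Egfr was lower by 0.14 and the intermediate filament gene Vim by 0.24. The study had listed Fabp7, Nr2e1, Rfx4 and Egfr as lower in maternal than in pups removed mice on these arrays. The study required an adjusted p under 0.25 for this. Its quantitative PCR on 8 mice per group also found Fabp7 significantly lower. The members were chosen with such results known, so the counts of 10 and 5 are not an independent test. The median of the list was -0.11, and its mean level ran from 9.02 to 9.11 on maternal, from 9.18 to 9.28 on pups removed and from 9.16 to 9.28 on virgin arrays. Markers of ependymal cells, which share the ventricular wall with these cells, were lower too, with a median of -0.31. Fabp5, a relative of Fabp7 with a wider range of cell types, was lower by 0.28 (SE 0.08, limma adjusted p = 0.319).

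Cell division genes followed the same direction. Of 34 cell cycle genes 29 were lower and 5 higher, 15 were lower and 0 higher at an unadjusted p under 0.05 in limma on these log2 values, and none was called. The median difference was -0.09. Of these 34 genes, 11 had a mean signal under 7. The mean level of the list ran from 7.18 to 7.30 on maternal and from 7.24 to 7.40 on pups removed arrays, so the groups overlapped. Smc4 and Smc2, the ATPases of condensin, were lower by 0.22 and 0.16, Nusap1, a spindle protein, by 0.19, and Top2a and Mki67, markers of dividing cells, by 0.26 and 0.21, with adjusted p-values from 0.310 to 0.556. Replication-dependent histones, which are made during DNA synthesis, were lower on 40 of 45 targets, with 18 lower and 0 higher at an unadjusted p under 0.05 and a median of -0.12. Of these 18, 10 were H3 targets that name the same 12 genes and count as 1 measurement. H2ac4 was lower by 0.30 (SE 0.07, limma adjusted p = 0.278) at the low mean signals of 4.17 and 4.47. Of 11 neuroblast markers 10 were lower, 1 of them at an unadjusted p under 0.05, with a median of -0.03 and a range from -0.32 to 0.02.

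**Figure D4:**
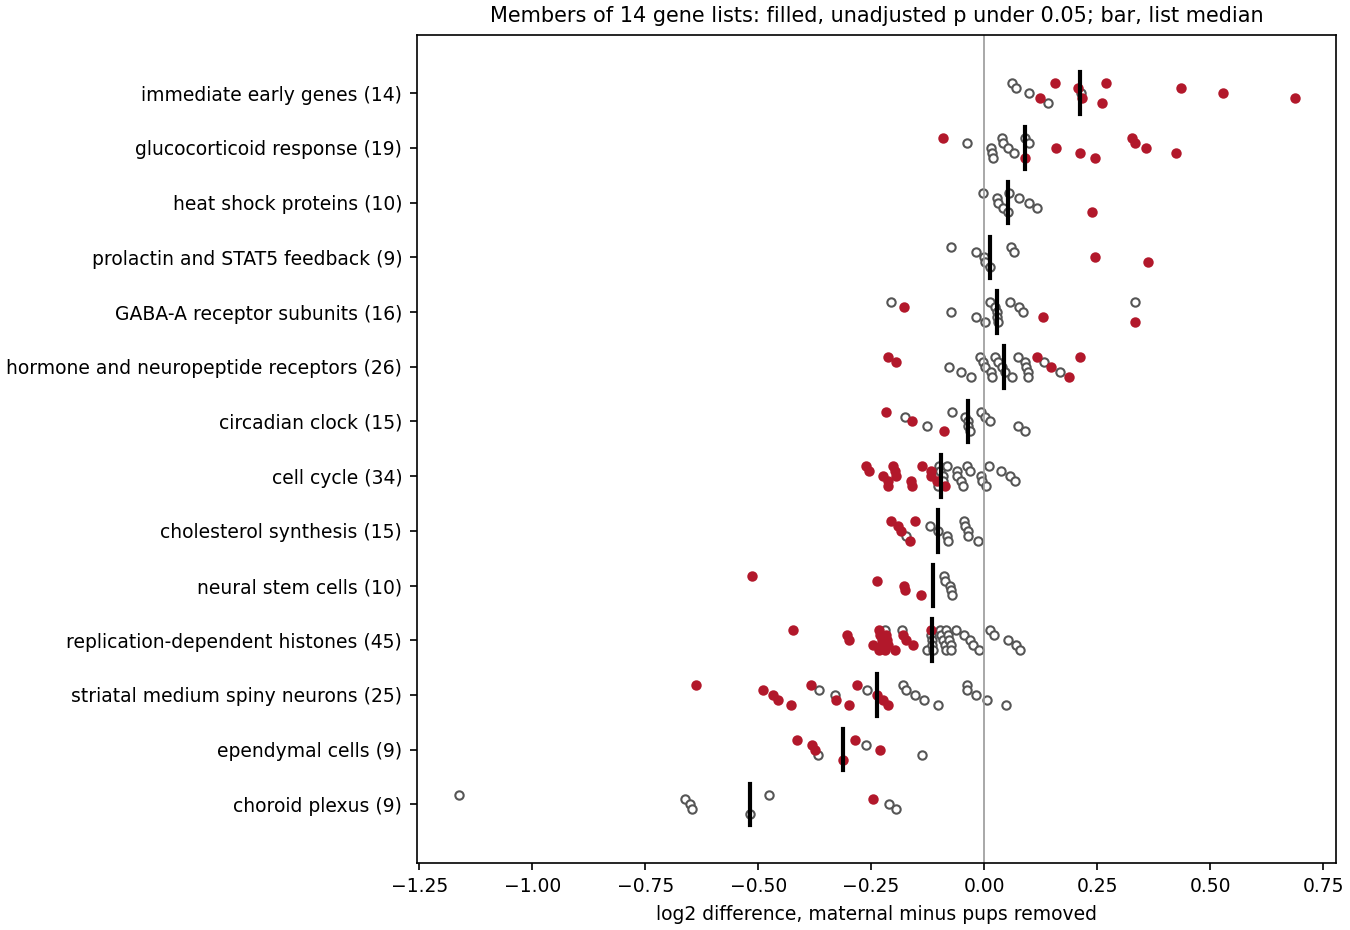
Log2 difference, maternal minus pups removed (horizontal axis), of each measured member of 14 gene lists (rows, number of members in parentheses), with filled points for members at an unadjusted p under 0.05 and a bar for the list median. Immediate early genes lie to the right of 0 and the neural stem cell, cholesterol, ependymal and choroid plexus lists lie to the left of it.

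Rbm3, an RNA-binding protein induced by mild cooling, was lower on each of the 3 targets that name it, by 0.49 (SE 0.10), 0.51 (SE 0.11) and 0.48 (SE 0.10), each with a limma adjusted p of 0.275. The 3 targets followed each other from array to array and count as 1 measurement. The brightest ran from 10.43 over 10.63 to 11.00 on maternal arrays and from 10.83 over 11.13 to 11.42 on pups removed arrays, and the groups overlapped. Cirbp, its relative, was lower by 0.28 (SE 0.09, limma adjusted p = 0.346). Of 10 heat shock genes 9 were higher and 1 lower, with a median of 0.05, and only Hspa5, the chaperone of the endoplasmic reticulum, was higher at an unadjusted p under 0.05, by 0.24 (SE 0.06, limma adjusted p = 0.310). Clock genes had a median of -0.04, with 3 of 15 lower at that p, among them the clock output genes Dbp, lower by 0.22, and Nr1d1, lower by 0.16.

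All 15 genes of cholesterol synthesis were lower in mothers with pups, 5 of them at an unadjusted p under 0.05, and none was called. The median was -0.10. Lss, which closes the sterol rings, was lower by 0.18 (SE 0.04, limma adjusted p = 0.278), Msmo1, which removes methyl groups, by 0.21 (SE 0.07, limma adjusted p = 0.421), and Sqle, the epoxidase before Lss, by 0.15 (SE 0.06, limma adjusted p = 0.505) with no overlap. The mean level of the list ran from 9.12 to 9.27 on maternal and from 9.25 to 9.44 on pups removed arrays.

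GABA and peptide genes, for which the LS is best known, held no call in the fit to all arrays. Of 16 GABA-A receptor subunits 12 were higher and 4 lower, 2 were higher and 1 lower at an unadjusted p under 0.05, and the median was 0.03. Gabre, the epsilon subunit, was higher by 0.33 (SE 0.15, 95% confidence interval 0.02 to 0.64, limma adjusted p = 0.536), and Gabrq, the theta subunit, by 0.34 (SE 0.16, limma adjusted p = 0.573). Pups removed arrays spread from 7.74 to 8.90 for Gabre and covered the whole maternal range of 8.22 to 8.74. Gabrd, the delta subunit of extrasynaptic receptors, was lower by 0.21 (SE 0.10, limma adjusted p = 0.578) and Gabra4, its frequent partner, by 0.07 (SE 0.06, limma adjusted p = 0.761). Gabrr1, a rho subunit, was lower by 0.18 and Gabrp, the pi subunit, higher by 0.13. Without pups removed replicate 4 the differences of Gabre, Gabrq and Gabrd were 0.47, 0.47 and -0.30 and were called (limma adjusted p = 0.181, 0.222 and 0.202). The differences shrank with the mean level of striatal or ependymal markers on each array as a covariate, a fit described below. Gabre then differed by 0.19 with either level and Gabrq by 0.14 with either. Gabrd differed by 0.02 with the striatal and by -0.07 with the ependymal level. In the study's quantitative PCR on 8 mice per group, Gabre and Gabrq were significantly higher in maternal than in pups removed mice. Gabrd and Gabra4 were significantly lower there. The absence of a call on the arrays is therefore no evidence that these subunits did not differ. The 5 genes of GABA synthesis and transport differed by at most 0.03.

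Nmu, which encodes neuromedin U, was higher by 0.35 (SE 0.08, limma adjusted p = 0.278), with maternal arrays from 6.30 to 6.70 and pups removed arrays from 6.04 to 6.42. It was called in 6 of 28 alternatives. It was the neuropeptide gene with the smallest p of 22, of which 13 were higher and 9 lower with a median of 0.02. Gal, which encodes galanin, was lower by 0.26 (SE 0.12, limma adjusted p = 0.544). Among 26 receptors of hormones and neuropeptides 19 were higher and 7 lower, 4 and 2 of them at an unadjusted p under 0.05, with a median of 0.04. The galanin receptor gene Galr1 was higher by 0.21, the mu opioid receptor gene Oprm1 by 0.19, the orexin receptor gene Hcrtr1 by 0.15 and the estrogen receptor gene Esr2 by 0.12. The thyrotropin receptor gene Tshr was lower by 0.21 and the kappa opioid receptor gene Oprk1 by 0.19. The adjusted p-values of these 6 receptors ran from 0.320 to 0.497. Trpc4, a cation channel gene strongly expressed in the LS, was higher by 0.17 (SE 0.06, limma adjusted p = 0.457), at 11.24 to 11.37 and 10.92 to 11.38.

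Other genes that the study followed were not called. Cxcl12, a chemokine, was higher by 0.07 (SE 0.05, limma adjusted p = 0.718) and its receptor gene Cxcr4 was lower by 0.17 (SE 0.08, limma adjusted p = 0.524). Gsr, the glutathione reductase, was lower by 0.12 (SE 0.05, limma adjusted p = 0.504) and the myelin gene Pllp by 0.17 (SE 0.06, limma adjusted p = 0.469). In the study's quantitative PCR on 8 mice per group, Cxcl12 was significantly higher in maternal than in pups removed mice. Decreases of Gsr and Pllp did not reach significance there. The kinase genes Akt1 and Akt2 were lower by 0.10 (SE 0.04) and 0.12 (SE 0.07). Among the genes with the smallest p-values, Skil, an inhibitor of SMAD signaling, was lower by 0.21 (SE 0.05, limma adjusted p = 0.278) and Mettl22, a methyltransferase, by 0.18 (SE 0.04, limma adjusted p = 0.265).

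Markers of tissue that borders the LS varied among arrays. Lateral septal markers had 9 of 11 members higher and 2 lower with a median of 0.05, and their mean level ran from 10.09 to 10.16 on maternal and from 9.96 to 10.23 on pups removed arrays, so they read high on all of them. Of 25 markers of striatal medium spiny neurons 23 were lower and 2 higher, 12 lower and 0 higher at an unadjusted p under 0.05 in limma, with a median of -0.24. Their mean level ran from 9.54 to 10.01 on maternal and from 9.67 to 10.37 on pups removed arrays. Within this list Drd2 was lower by 0.21 (SE 0.09), Drd1 by 0.18 (SE 0.12) and Scn4b by 0.64 (SE 0.26), with adjusted p-values from 0.499 to 0.680.

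All 9 ependymal markers were lower, 6 at an unadjusted p under 0.05, with a median of -0.31 and mean levels from 7.63 to 8.24 on maternal and from 7.73 to 8.49 on pups removed arrays. All 9 choroid plexus markers were lower, 1 at that p, with a median of -0.52 and mean levels from 7.64 to 9.23 and from 7.54 to 9.66. Ttr, the transthyretin gene of the choroid plexus, ran from 8.38 to 13.58 and from 8.34 to 13.76, and its difference was -0.65 with an SE of 1.17. The choroid plexus channel gene Kcnj13 differed by -1.16 (SE 0.86). Car12, a carbonic anhydrase gene, and Stoml3 differed by -0.87 (SE 0.30) and -0.66 (SE 0.24). Of the 27 genes with a difference over 0.5 in size, 23 were lower in maternal mice.

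The fit was repeated with the mean level of striatal or ependymal markers on each array as a covariate, an alternative chosen after seeing the data. With the striatal level as a covariate, the first alpha globin target differed by 2.62, Fam107a by 0.33, Fos by 0.66, Cish by 0.25 and Fabp7 by -0.53, each within 1 SE of its value without it. Other differences shrank. With the striatal and the ependymal level Mki67 differed by -0.02 and -0.05, Top2a by -0.11 and -0.13, Stoml3 by -0.36 and -0.13, Car12 by -0.34 and -0.32 and Cxcr4 by -0.07 and -0.04. Of 94 targets named in the text, 25 and 29 were smaller by over 1.5 times or turned with these covariates. The globin targets and Fam107a were called with either covariate, while Sult1a1, Phyhd1, Fjx1 and Cpped1 were called with neither and Mgat5b was called with the ependymal level alone. Medians with the striatal and the ependymal level were 0.27 and 0.29 for immediate early genes, -0.10 and -0.09 for neural stem cell genes, and -0.07 and -0.06 for cell cycle genes. Drd2 went from -0.21 to -0.02 with the striatal level. Drd2, Drd1 and Scn4b are members of the striatal list that forms this level, and they are among the 25 targets. Their shrinkage was therefore built into the fit and is not a separate result.

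**Figure D5:**
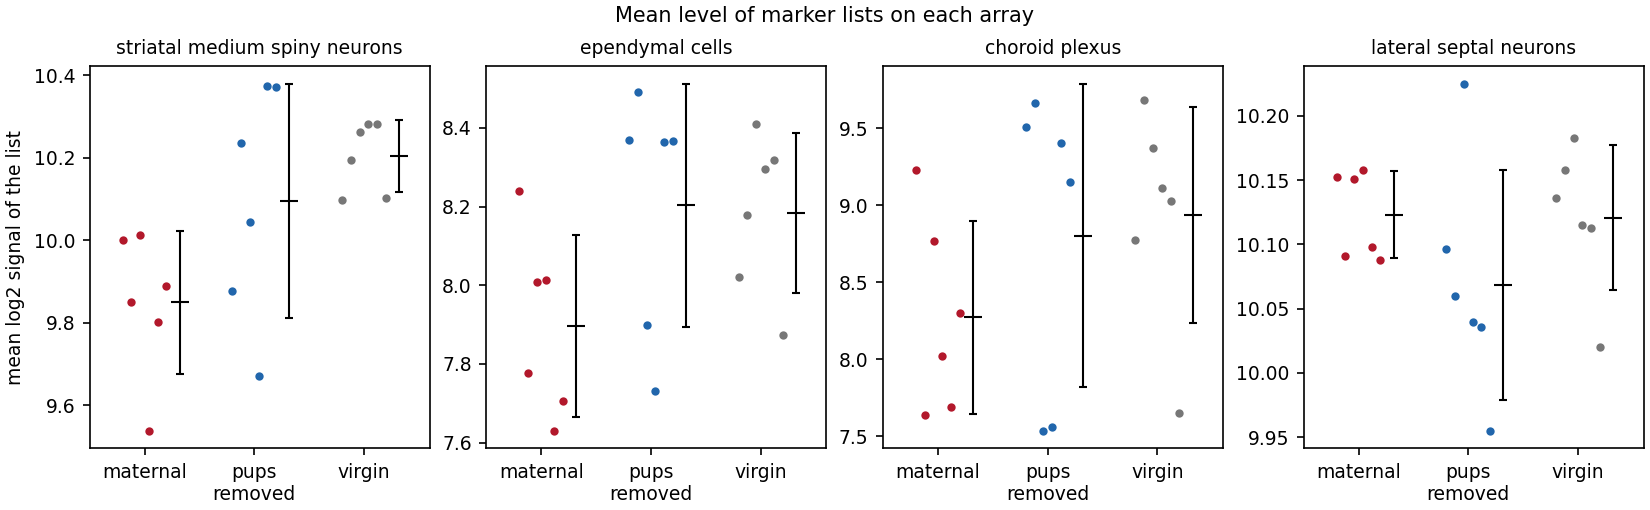
Mean log2 signal (vertical axes, each panel with its own range) of the markers of 4 cell types on each array, with 1 point per mouse and the mean and SD of each group of 6 beside the points. Maternal and pups removed mice overlap in all 4 panels, and the maternal striatal levels, at 10.01 or below, lie under all virgin ones, at 10.10 or above.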

How the data were processed

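RNA from the microdissected LS of each mouse was hybridized to Affymetrix Mouse Gene 1.0 ST arrays. The authors deposited log2 signal per target, made with Affymetrix Power Tools 1.12.0 by PLIER with GC-bin background correction and rounded to 2 decimals; the methods place normalization in that step and name no separate one between arrays. RNA was extracted in matched triplets, and 6 of 8 mice per group were arrayed. Values were used as deposited. Targets were named from the platform annotation, and a gene was represented by its brightest target naming it alone.

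With limma 3.58.1 (R 4.3.3), a 3-group linear model was fitted to the 18 arrays, its variances were moderated by empirical Bayes with a prior of 2.62 degrees of freedom, and the fit was tested on simulated data. Same-numbered mice did not deviate together (correlations of deviations from -0.08 to 0.07), so the numbers were not used as pairs.

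Named are the 15 higher and 15 lower single-gene targets with the smallest p where discussed, up to 3 members of each list, genes the study followed, and globins. Npas4, Egr1, Egr2, Junb, Dusp1, Nr4a1, Sgk1, Tsc22d3, Zbtb16, Ddit4, Fkbp5, Nr3c1, Vim, Mki67, Top2a, H2ac4, Galr1, Esr2, Kcnj13, Car12, Stoml3, Ttr, Scn4b and Zfp605 were chosen after their values were seen. The comparison, members and lists were chosen with earlier results of these data known. Some genes the study followed are not reported here. Precision is limited by the number of arrays. Promoter windows are from RefSeq, build GRCm38.p6.

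Lists not described in the report, each without a call, had these median differences: potassium channels -0.04, Trpc channels 0.08, Akt and insulin signaling -0.02, fatty acid binding proteins 0.01, medial septal neurons 0.03, oligodendrocytes 0.03, endothelial cells -0.04, pericytes -0.09, Cxcl12 with its receptors -0.145 and meningeal fibroblasts -0.02.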

Additional observations from a re-analysis of the deposited data

Results flagged for a closer look

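In 188 groups of 6 arrays (94 targets named in the text, maternal and pups removed), 9 held 1 array whose gap to its nearest neighbour exceeded Dixon's 95% critical share of the whole range of the group. Chance gives about 1 such group in 20. Zfp605, a zinc finger gene, read 6.05 on maternal replicate 3 against 7.47 to 8.20 on the other 5 (gap ratio 0.66), and its difference went from -0.69 to -0.39 without that array. For Zbtb16 maternal replicate 3 read 8.80 against 9.15 to 9.23 (0.814), and the difference went from 0.21 to 0.28. For Drd1 maternal replicate 4 read 9.05 against 9.44 to 9.56 (0.765), and the difference went from -0.18 to -0.10. Sult1a1 was highest on maternal replicate 2 at 8.52 (0.64), with a difference of 0.30 without it. Pllp was lowest on maternal replicate 2 (0.704) and, in the other group, on pups removed replicate 3 (0.75), with differences of -0.13 and -0.23 when these were left out. Pups removed replicate 4 was lowest for Arc (0.792) and Nusap1 (0.692), whose differences became 0.23 and -0.23 without it. Hbb-bh1 was highest on maternal replicate 5 (0.735), and its difference of 0.07 became 0.02.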

How the results depend on the processing

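The count of 11 called targets became 42 with quantile normalization (27 higher and 15 lower), 7 with median centring, 204 when only targets with a mean of at least 7 were tested, 309 when only targets naming 1 gene were tested, 783 with array weights, 70 with a trended variance prior, 5 at an adjusted p under 0.05 and 5 with the striatal marker level as a covariate. The last was added after the data were seen. It was 11 with only the 12 arrays and 13 with the ependymal level as a covariate, also added later. With the replicate number as a replicate block it was 9, of which 7 were among the 11; no pair of same-numbered mice correlated over 0.1. Leaving out single arrays gave 5 to 719 calls, with 719 without pups removed replicate 4, 204 without maternal replicate 1, 30 and 19 without virgin replicates 5 and 4, 6 and 5 without maternal replicates 3 and 4, and 8 to 15 without any other. The tested targets are fewer in the single-gene and signal filters. The cause of the change in the count was not tested for any setting.

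The 4 globin targets were called wherever they were tested, and Fam107a in all 29 alternatives. The others lost their call in 17 (Cpped1), 14 (Mgat5b), 14 (Fjx1), 12 (Sult1a1), 12 (Phyhd1) and 3 (the target without a gene) of them. Genes without a call gained one in 12 (Cish), 11 (Fabp7), 11 (Mettl22), 10 (Socs2, brighter target), 9 (Rbm3), 8 (Btg2), 6 (Nmu) and 6 (Skil), and 40 of the named targets gained one without pups removed replicate 4 and 38 with array weights. Of 2709 values of named targets under the alternatives 2700 kept their direction. The exceptions came with the added covariates: with the striatal level Gabrd was 0.019, Drd1 0.07, Kcnj13 0.067, Gabra4 0.054, Hbb-bh2 -0.002 and Ttr 0.88, and with the ependymal level Kcnj13 was 0.54, Gabra4 0.002 and Ttr 1.65. The median of the STAT5 list, 0.013, turned to -0.006 without maternal replicate 5 and -0.013 with the striatal level, and was 0.044 without pups removed replicate 4 and 0.048 with the ependymal level. The median of the striatal list turned to 0.01 with the striatal level, that of the ependymal list became -0.007 and that of the choroid plexus list 0.138 with the ependymal level. Each level is the mean of the members of its own list. The moves of the striatal and ependymal medians with their own level were therefore built into the fit. The distance of low signals such as that of H2ac4 from background was not tested.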
